A study of Homo sapiens with 8 samples.

Results

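The cytosolic heat shock chaperones and their partners were followed in T47D cells, an established line of luminal human breast carcinoma. The list named 45 genes, and members were the probe sets whose gene symbol in the platform's probe table is, or includes, one of them. Of the 45 genes, 43 were measured, out of 20172 gene names in the table. HSF2 and AHSA1 were not analysed here. The 43 genes had 50 probe sets. Taking for each gene the probe set with the highest mean over all arrays left 42, since HSPA1A and HSPA1B share theirs. The genes fall into 17 of the HSP70, HSP40 and HSP90 families (16 probe sets), 13 of the CCT ring and prefoldin, and 13 with other roles: 6 HSP90 cochaperones, 4 BAG proteins and CHIP, 2 small heat shock proteins and the factor HSF1.

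The cells had been infected with a lentivirus for a conditional hairpin RNA (shRNA) against EglN2, an oxygen-sensing prolyl hydroxylase, or for the control shRNA named Scr. There were 4 groups of 2 arrays each: EglN2 shRNA cells at day 2 (48 h of doxycycline at 1 ug/ml), EglN2 shRNA cells at day 0 (doxycycline for 0 h), Scr cells at day 2 and Scr cells at day 0. Neither the promoter that drives the hairpins nor whether each line is 1 clone is stated. All 4 groups share the T47D background and the lentiviral infection, and both day 2 groups share the drug.

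Values are log2 levels per probe set, so a difference of 1 is a doubling. Array medians over the 21214 probe sets with a gene name lay between 7.81 and 7.86, and replicate arrays correlated at 0.9921 to 0.9965. With 2 arrays a group the precision is limited, and a difference between 2 groups had a median standard error (SE) of 0.12. Separate cultures are not named for the replicates, so each p-value rests on the spread between samples that may be technical repeats. The 9 luminal markers averaged 9.76 (ESR1) to 14.46 (KRT18), and 12 markers of leukocytes, endothelium, fibroblasts and basal breast averaged 4.24 (PTPRC) to 8.68 (COL1A1). Of the probe sets of the table with a name, 81.4% lay below ESR1 and 64.3% below COL1A1. EGLN2, whose probe set also carries the name RAB4B-EGLN2, read 8.26 and 8.29 in EglN2 shRNA cells at day 2, against 8.85 and 9.04 at day 0. It read 8.81 and 8.90 in Scr cells at day 2, against 8.97 and 9.0 at day 0. The difference of -0.67 in EglN2 shRNA cells missed the threshold of 0.05 in limma (adjusted p = 0.134).

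HSP70 proteins bind exposed hydrophobic stretches of unfolded proteins in a cycle driven by ATP. HSP40 proteins bring them clients and start ATP hydrolysis, while HSP110 and BAG proteins release the nucleotide. HSP90 then finishes the maturation of kinases and of steroid receptors, including the estrogen receptor on which luminal breast cancer cells depend. The CCT ring is a chaperonin, a double-ringed chamber that folds actin and tubulin handed over by prefoldin. Heat shock factor 1 (HSF1) is held inactive by chaperones in unstressed cells, and on stress it binds heat shock elements, inverted repeats of the unit GAA, in the promoters of HSP70, HSP40 and HSP90 genes.

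Heat shock elements were looked up in the 250 bases before each RefSeq gene start (GRCh38.p14), which the promoter table held for 39 of the 45 genes. A run of 3 units (GAA, TTC and GAA in turn with 2 free bases between, on either strand) stood before 5 of the 39 genes (12.8%) and before 152 of all 27305 genes in that table (0.56%). Of the HSP70, HSP40 and HSP90 genes 4 of 16 held it, and of the CCT and prefoldin genes 0 of 11. A run of 2 units, GAANNTTC or TTCNNGAA, which every 3-unit run contains, stood before 17 of the 39 (43.6%), 10 of the 16 (62.5%) and 3 of the 11 (27.3%), against 3813 of all genes (14.0%). The windows below are those of members the results return to, 5′ to 3′ on the gene's strand, with the 3-unit run in capitals for the first 4 and the 2-unit run for the other 5. They show that the HSC70 and HSP90 genes hold the longer run, and that the inducible HSP70 pair and the CCT subunit TCP1 hold the shorter one. Only exact runs were counted, with no mismatch allowed.
HSPA8, chr11:123062164-123062381, minus strand, from 245 to 28 bases before the start: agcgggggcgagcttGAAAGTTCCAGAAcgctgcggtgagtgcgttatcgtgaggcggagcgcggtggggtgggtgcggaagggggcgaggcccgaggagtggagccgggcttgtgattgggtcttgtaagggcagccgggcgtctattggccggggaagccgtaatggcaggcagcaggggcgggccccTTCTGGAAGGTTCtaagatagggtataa
HSP90AA1, chr14:102087105-102087147, minus strand, from 103 to 61 bases before the start: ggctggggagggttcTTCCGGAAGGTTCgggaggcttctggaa
HSP90AB1, chr6:44247763-44247858, plus strand, from 180 to 85 bases before the start: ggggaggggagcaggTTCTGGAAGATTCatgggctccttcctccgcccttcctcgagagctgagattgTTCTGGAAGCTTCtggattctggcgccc
CHORDC1, chr11:90223072-90223124, minus strand, from 75 to 23 bases before the start: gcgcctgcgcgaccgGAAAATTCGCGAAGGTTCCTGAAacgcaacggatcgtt
HSPA1A, chr6:31815422-31815459, plus strand, from 121 to 84 bases before the start: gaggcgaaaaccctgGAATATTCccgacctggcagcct
HSPA1B, chr6:31827618-31827655, plus strand, from 120 to 83 bases before the start: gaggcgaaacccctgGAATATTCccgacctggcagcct
DNAJA1, chr9:33025060-33025097, plus strand, from 213 to 176 bases before the start: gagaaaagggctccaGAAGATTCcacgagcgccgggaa
DNAJB1, chr19:14518422-14518489, minus strand, from 92 to 25 bases before the start: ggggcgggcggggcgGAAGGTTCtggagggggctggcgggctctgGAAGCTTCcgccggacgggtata
TCP1, chr6:159789811-159789848, minus strand, from 246 to 209 bases before the start: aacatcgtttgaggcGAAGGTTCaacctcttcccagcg
HSPH1 held neither run in this window. A match is a description of letters in a window, and factor binding was not measured.

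**Figure D1:**
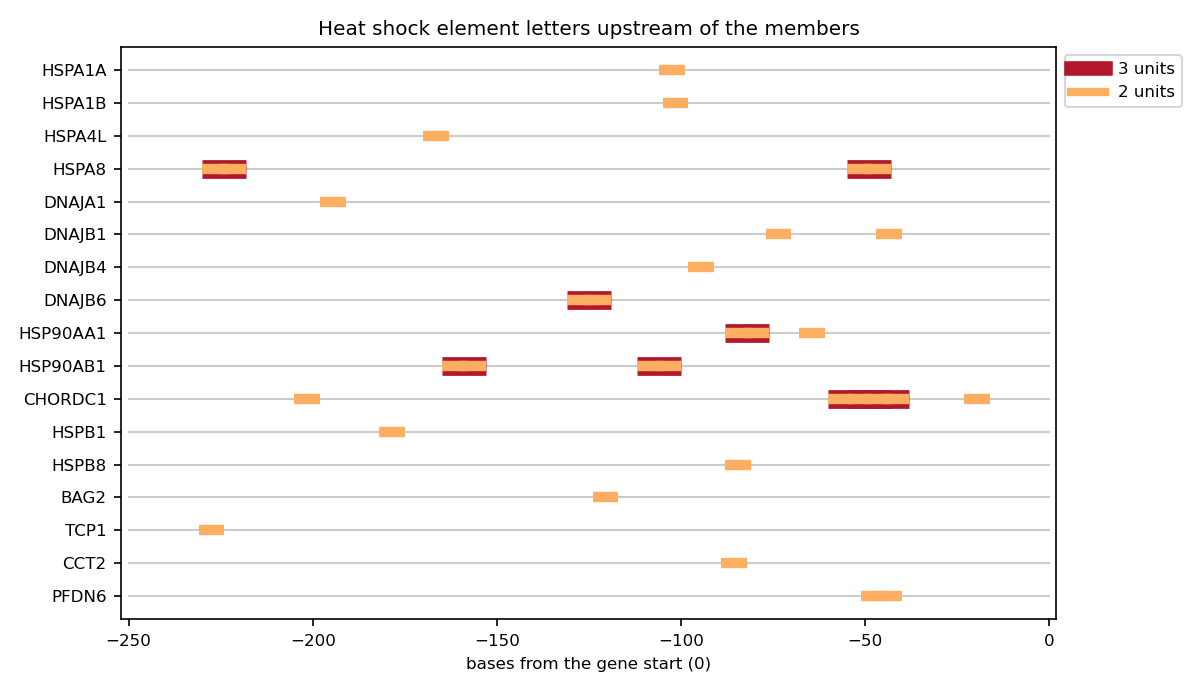
Positions of the heat shock element runs in the bases before the gene start (x axis, bases from the start) for each member with a match (1 line a gene). Runs of 3 units and runs of 2 units are drawn apart; HSPA8 and HSP90AB1 each hold 3-unit runs, and TCP1 holds a 2-unit run.

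Day 2 was set against day 0 in each line, with the EglN2 hairpin and with the control hairpin. No group was kept for 2 days without doxycycline, so the drug and the time in culture cannot be told apart. HSPH1, HSPA1A/HSPA1B and DNAJA1 were among 9 of 42 member probe sets lower at day 2 in both lines without overlap (4.07% of all probe sets). The CCT ring differed by less than they did, by -0.18 to 0.04 in the EglN2 shRNA line and -0.09 to 0.02 in the Scr line. Even so, 6 of its 8 subunits lay lower without overlap in the EglN2 shRNA line (15.5% of all probe sets), and CCT3 did in both lines. No member passed the test in either line (limma without a replicate block, Benjamini-Hochberg over 21214 probe sets, threshold 0.05). In the EglN2 shRNA line 0 of 42 member probe sets passed, against 2 of all probe sets (0.00943%), and the smallest adjusted p of a member was 0.345. Likewise 0 of 42 passed in the Scr line, against 0 of all (0%), and the smallest adjusted p was 0.26. At an unadjusted p under 0.05 in the EglN2 shRNA line, 8 members were lower (3.04% of all probe sets) and 0 higher (2.73%). Scr cells had 7 lower (5.36%) and 0 higher (7.49%). These are bulk samples, in which fewer cells with a high level and less RNA per cell cannot be told apart.

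Of the 42 member probe sets, 33 had a negative and 9 a positive difference in the EglN2 shRNA line, where 47.8% of all probe sets were negative. Their median was -0.11, against 0.00 over all probe sets. The pair of day 2 arrays lay below both day 0 arrays for 23 members (15.5% of all probe sets) and above them for 1 (15.2%). In the Scr line 25 were negative and 16 positive, where 51.4% of all were negative, with a median of -0.03 against -0.01. Under quantile normalization of the arrays 31 of 42 were negative in the EglN2 shRNA line and 36 of 42 in the Scr line (medians -0.12 and -0.10). The line with more negative members was then the Scr line. As deposited, groups of the Scr line did not overlap for 14 lower (24.8%) and 5 higher members (23%). The 2 lines share no arrays. In both of them 9 members lay lower without overlap (4.07% of all probe sets): HSPA1A/HSPA1B, HSPA8, HSPH1, DNAJA1, STIP1, FKBP4, BAG1, BAG3 and CCT3. PFDN1 alone among the members lay higher without overlap in both (5.24%).

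**Figure D2:**
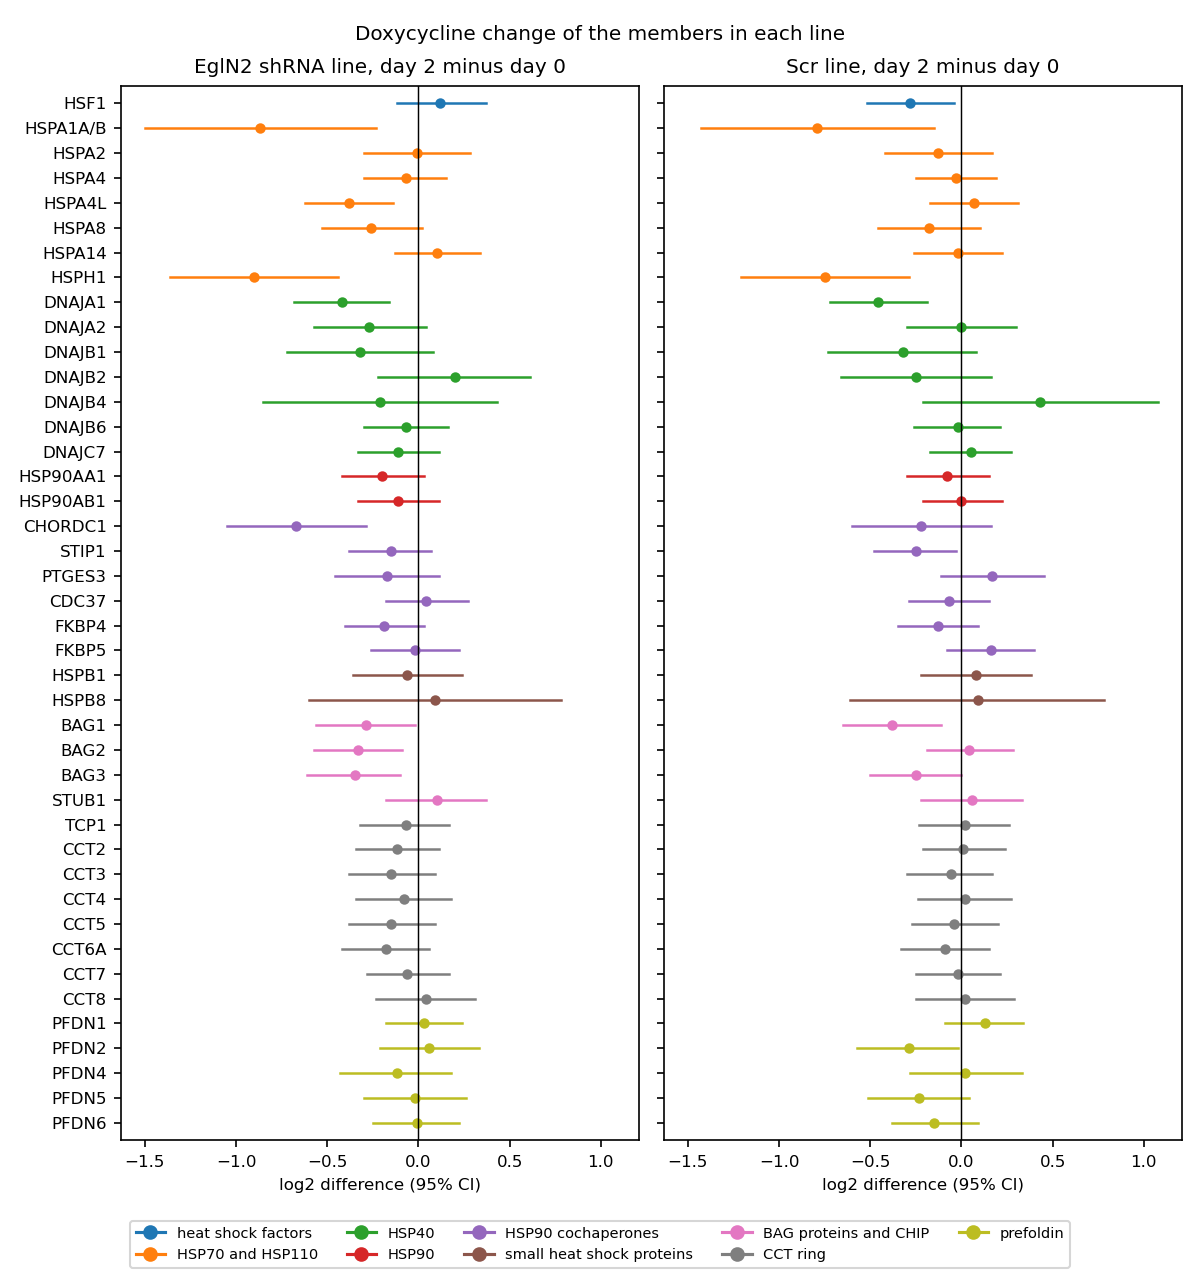
Day 2 minus day 0 difference (x axis, log2, points with 95% confidence intervals) of each measured member in the EglN2 shRNA line (left) and the Scr line (right), coloured by role. HSPA1A/B and HSPH1 lie farthest to the left in both panels, at -0.87 and -0.90 in EglN2 shRNA cells and -0.79 and -0.75 in Scr cells, and the CCT ring spans -0.18 to 0.04 and -0.09 to 0.02.

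HSF1, the activator of the heat shock response, read 9.93 and 9.74 in EglN2 shRNA cells at day 2, against 9.65 and 9.77 at day 0. On the Scr arrays the readings were 9.56 and 9.50 at day 2, against 9.83 and 9.79 at day 0. The groups overlapped in the EglN2 shRNA line, with a difference of 0.12 (SE 0.11, adjusted p = 0.973). They did not overlap in the Scr line, where the difference of -0.28 (SE 0.11) did not pass (adjusted p = 0.352). This is a transcript level and does not report the activity of the factor.

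Among HSP70 and HSP110 genes the pair of strongly inducible HSP70 genes and HSPH1 stood lowest at day 2. HSPA1A and HSPA1B, neighbouring genes that encode near-identical inducible HSP70, share 5 probe sets and cannot be told apart. Their probe set with the highest mean read 12.34 and 11.69 in EglN2 shRNA cells at day 2, against 13.11 and 12.65 at day 0. The Scr cells gave 12.42 and 11.69 at day 2, against 13.07 and 12.62 at day 0. The groups did not overlap in either line. The replicate 2 array read below the replicate 1 array in all 4 groups, by 0.45 to 0.73. The day 2 minus day 0 difference was -0.87 in the EglN2 shRNA line (SE 0.28, 95% confidence interval -1.50 to -0.23, adjusted p = 0.709), a level 54.9% of that at day 0. For the Scr line it was -0.79 (SE 0.28, interval -1.43 to -0.15, adjusted p = 0.332), or 57.8%. The other 4 probe sets of the pair gave -0.88 to -0.79 and -0.78 to -0.77. The fit behind these p-values had no replicate block, so the gap between replicates counts as spread. With the replicate number as a block, the first probe set had adjusted p = 0.0398 in EglN2 shRNA cells and 0.0341 in Scr cells (limma). The labels do not tie that number to a shared culture. Both promoters printed above carry the same 2-unit run at nearly the same distance from the start.

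HSPH1 encodes HSP105, the nucleotide exchange factor of cytosolic HSP70. It read 10.45 and 10.17 in EglN2 shRNA cells at day 2, against 11.46 and 10.96 at day 0. Readings of 10.53 and 10.18 in Scr cells at day 2 stood against 11.32 and 10.89 at day 0. Every day 2 array lay below every day 0 array, across both lines. As with HSPA1A/HSPA1B, the replicate 2 array read below replicate 1 in all 4 groups, here by 0.28 to 0.50. The difference was -0.90 (SE 0.21, adjusted p = 0.345) in the EglN2 shRNA line and -0.75 (SE 0.21, adjusted p = 0.265) in the Scr line, levels of 53.6% and 59.5%. With the replicate number as a block, the adjusted p was 0.0398 and 0.0341 (limma).

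HSPA8, the constitutive HSC70 that does much of the housekeeping folding, read 14.39 and 14.15 in EglN2 shRNA cells at day 2, against 14.57 and 14.48 at day 0. In Scr cells it read 14.37 and 14.13 at day 2, against 14.42 and 14.44 at day 0. The groups did not overlap in either line, though the nearest arrays of the 2 days lay closer together than the day 2 replicates did. The differences of -0.26 and -0.18 (SE 0.12 each) did not pass (adjusted p = 0.895 and 0.542). HSPA4L, a testis-enriched HSP110 relative, had differences of opposite sign in the lines in the values as deposited. It read 10.01 and 10.06 in EglN2 shRNA cells at day 2, against 10.51 and 10.32 at day 0, and 10.28 and 10.26 in Scr cells at day 2, against 10.17 and 10.23 at day 0. Its differences were -0.38 (SE 0.11, adjusted p = 0.531) and 0.07 (SE 0.11, adjusted p = 0.787). Under quantile normalization all 7 probe sets of the family were negative in the Scr line, HSPA4L among them. The other 3 members of the family, HSPA2, HSPA4 and HSPA14, had differences of -0.07 to 0.10 in the EglN2 shRNA line and -0.13 to -0.02 in the Scr line.

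**Figure D3:**
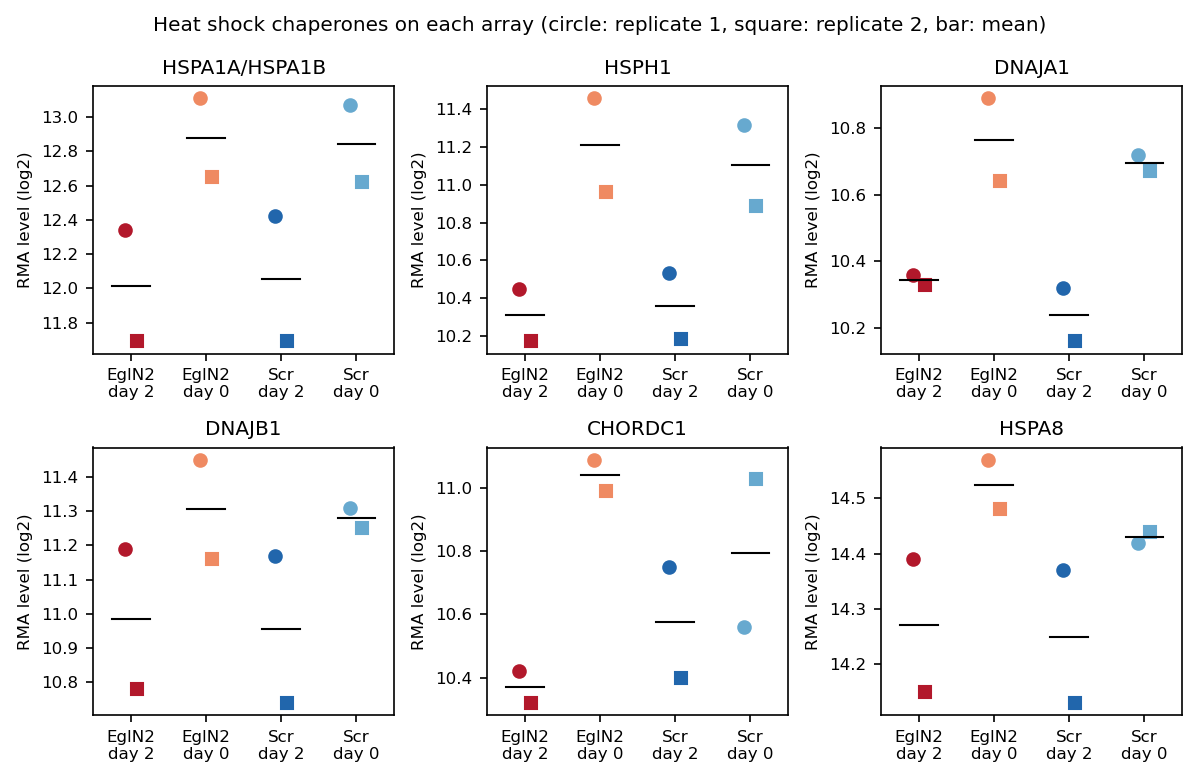
Log2 level of 6 members (1 panel each; y axes differ) on every array, by group, with circles for replicate 1, squares for replicate 2 and a bar at the mean. HSPH1, HSPA1A/B and DNAJA1 read lower at day 2 than at day 0 in both lines.

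DNAJA1, a farnesylated HSP40 that feeds clients to HSC70, read 10.36 and 10.33 in EglN2 shRNA cells at day 2, against 10.89 and 10.64 at day 0. On the Scr arrays the readings were 10.32 and 10.16 at day 2, against 10.72 and 10.67 at day 0. The 4 day 2 arrays all lay below the 4 day 0 arrays. The differences were -0.42 (SE 0.12, adjusted p = 0.532) and -0.46 (SE 0.12, adjusted p = 0.26), levels of 74.7% and 73% of day 0. DNAJB1, the stress-inducible HSP40, read 11.19 and 10.78 in EglN2 shRNA cells at day 2, against 11.45 and 11.16 at day 0. The Scr cells gave 11.17 and 10.74 at day 2, against 11.31 and 11.25 at day 0. Its groups overlapped in the EglN2 shRNA line, and the difference was -0.32 in each line (SE 0.18, adjusted p = 0.926 and 0.458).

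The other HSP40 genes differed less regularly. DNAJB4 had the widest spread of the family: it read 8.13 and 7.59 in EglN2 shRNA cells at day 2, against 8.26 and 7.88 at day 0, and 8.24 and 7.26 in Scr cells at day 2, against 7.27 and 7.36 at day 0. DNAJA2, DNAJB2, DNAJB6 and DNAJC7 had differences of -0.27 to 0.20 in the EglN2 shRNA line and -0.25 to 0.05 in the Scr line. For DNAJB6 the pair of probe sets disagreed in size: that with the higher level gave -0.07 and -0.02, and the other gave -0.25 and -0.24 (adjusted p = 0.872 and 0.418).

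The HSP90 genes lay close to their day 0 level. HSP90AA1, the inducible isoform, read 13.27 and 13.24 in EglN2 shRNA cells at day 2, against 13.48 and 13.42 at day 0. Readings of 13.37 and 13.32 in Scr cells at day 2 stood against 13.36 and 13.48 at day 0. HSP90AB1, the constitutive isoform, read 13.63 and 13.64 in EglN2 shRNA cells at day 2, against 13.78 and 13.71 at day 0. In Scr cells it read 13.70 and 13.66 at day 2, against 13.68 and 13.67 at day 0. Both were lower without overlap in the EglN2 shRNA line, by differences of -0.20 and -0.11 (SE 0.10, adjusted p = 0.901 and 0.973), and both overlapped in the Scr line (-0.08 and 0.00).

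CHORDC1, an HSP90-binding protein whose promoter carries overlapping 3-unit runs, read 10.42 and 10.32 in EglN2 shRNA cells at day 2, against 11.09 and 10.99 at day 0. On the Scr arrays the readings were 10.75 and 10.40 at day 2, against 10.56 and 11.03 at day 0. The groups lay well apart in the EglN2 shRNA line and overlapped in the Scr line, where the day 0 arrays spanned 0.47. The difference was -0.67 (SE 0.17, adjusted p = 0.427) in EglN2 shRNA cells, a level of 62.9%, and -0.22 (SE 0.17, adjusted p = 0.578) in Scr cells. STIP1, or HOP, which bridges HSP70 and HSP90, read 12.42 on both arrays of EglN2 shRNA cells at day 2, against 12.65 and 12.50 at day 0. The Scr cells gave 12.29 and 12.32 at day 2, against 12.54 and 12.58 at day 0. Its differences were -0.15 and -0.25 (SE 0.10, adjusted p = 0.951 and 0.355).

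Of the other HSP90 partners, the immunophilin FKBP4 had differences of -0.19 and -0.13 in the EglN2 shRNA and Scr lines, and the kinase loader CDC37 of 0.04 and -0.07. FKBP5, an immunophilin induced by steroid receptors, had -0.02 and 0.16 on its brighter probe set. That set is also named LOC285847, and the second, also named TMPRSS2, gave 0.37 and 0.42 with overlapping groups. PTGES3, the p23 cochaperone, had -0.17 and 0.17 and comes up again between the lines. The small heat shock proteins HSPB1 and HSPB8, which hold unfolded proteins without ATP, had -0.06 and 0.09 in the EglN2 shRNA line and 0.08 and 0.09 in the Scr line.

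The BAG proteins, exchange factors of HSP70, were lower at day 2 in 3 of 3 genes in the EglN2 shRNA line and 2 of 3 in the Scr line. Of all probe sets 47.8% and 51.4% had a negative difference in these lines. BAG1 read 9.36 and 9.52 in EglN2 shRNA cells at day 2, against 9.67 and 9.79 at day 0, and 9.27 and 9.49 in Scr cells at day 2, against 9.71 and 9.81 at day 0. BAG3, which is stress-inducible and guides clients to autophagy, read 9.75 and 9.48 in EglN2 shRNA cells at day 2, against 9.96 and 9.98 at day 0. It read 9.71 and 9.68 in Scr cells at day 2, against 9.95 and 9.94 at day 0. For both genes the day 2 arrays of both lines lay below all day 0 arrays. The differences were -0.29 and -0.38 for BAG1 (SE 0.12, adjusted p = 0.815 and 0.295) and -0.35 and -0.25 for BAG3 (SE 0.11, adjusted p = 0.691 and 0.396). BAG2, an inhibitor of the ubiquitin ligase CHIP, had -0.33 and 0.04 (SE 0.11), and STUB1, which encodes CHIP, had 0.10 and 0.06. Under quantile normalization all 4 of these genes were negative in the Scr line.

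The CCT ring differed little. TCP1, the subunit that gave the ring its older name, read 13.34 and 13.31 in EglN2 shRNA cells at day 2, against 13.42 and 13.38 at day 0. Readings of 13.23 and 13.27 in Scr cells at day 2 stood against 13.13 and 13.34 at day 0. Its differences were -0.07 and 0.02 (SE 0.11, adjusted p = 0.98 and 0.962). CCT6A read farthest from its day 0 level, at 12.36 and 12.40 in EglN2 shRNA cells at day 2, against 12.61 and 12.51 at day 0, and at 12.38 and 12.37 in Scr cells at day 2, against 12.37 and 12.56 at day 0. It differed by -0.18 (SE 0.11, adjusted p = 0.942) and by -0.09 (adjusted p = 0.723). CCT3 and CCT5 followed in EglN2 shRNA cells at -0.15 each (SE 0.10, adjusted p = 0.962). Of the 8 subunits 7 were negative in the EglN2 shRNA line, 6 of them without overlap (15.5% of all probe sets), with CCT8 at 0.04. In the Scr line 4 of 8 were negative, 8 of 8 under quantile normalization, and CCT3 alone lay lower without overlap (24.8% of all probe sets), at -0.06.

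Prefoldin, the hexamer that delivers actin and tubulin to the ring, had differences of -0.12 to 0.06 in the EglN2 shRNA line and of -0.29 to 0.13 in the Scr line over the 5 genes on the list. The subunit VBP1, outside the list, had -0.08 and 0.22 (SE 0.15, adjusted p = 0.989 and 0.555). PFDN2 read 11.09 and 10.97 in EglN2 shRNA cells at day 2, against 11.10 and 10.84 at day 0. In Scr cells it read 10.74 and 10.69 at day 2, against 11.09 and 10.93 at day 0. The groups overlapped in the EglN2 shRNA line, at 0.06 (SE 0.12, adjusted p = 0.989), and not in the Scr line, at -0.29 (SE 0.12, adjusted p = 0.365). PFDN5 and PFDN6 were also lower without overlap in Scr cells, at -0.23 and -0.15 (adjusted p = 0.445 and 0.564). The 3 probe sets of PFDN6 hold the same values on every array.

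Set side by side, the HSP70, HSP40 and HSP90 families had a median difference of -0.20 (range -0.90 to 0.20, 14 of 16 negative) in the EglN2 shRNA line. The CCT ring and prefoldin had -0.07 (range -0.18 to 0.06, 10 of 13 negative). In the Scr line the medians were -0.05 (11 of 16 negative) and -0.02 (7 of 13 negative). Quantile normalization gave -0.10 for both there, with 15 of 16 and 12 of 13 negative, and -0.18 and -0.06 in the EglN2 shRNA line. HSPH1 and HSPA1A/HSPA1B set the low end of the first block, and its median lay from that of the second by -0.13 in the EglN2 shRNA line and -0.03 in the Scr line. Per array, the median deviation of the HSP70, HSP40 and HSP90 genes from their own means was -0.03 and -0.14 in EglN2 shRNA cells at day 2, against 0.15 and 0.07 at day 0. In Scr cells it was 0.00 and -0.08 at day 2, against -0.01 and 0.05 at day 0. For the CCT ring and prefoldin it was 0.02 and -0.01 in EglN2 shRNA cells at day 2, against 0.12 and 0.04 at day 0, and -0.04 and -0.03 in Scr cells at day 2, against -0.07 and 0.04 at day 0. In these values the day 2 and day 0 arrays of the EglN2 shRNA line did not overlap in either block, and those of the Scr line overlapped in both. For the CCT ring and prefoldin, the nearest arrays of the EglN2 shRNA line lay at 0.02 at day 2 and 0.04 at day 0. That gap is smaller than the block's standard deviation within groups (0.05). The difference between the lines is given below and was near 0 under quantile normalization.

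**Figure D4:**
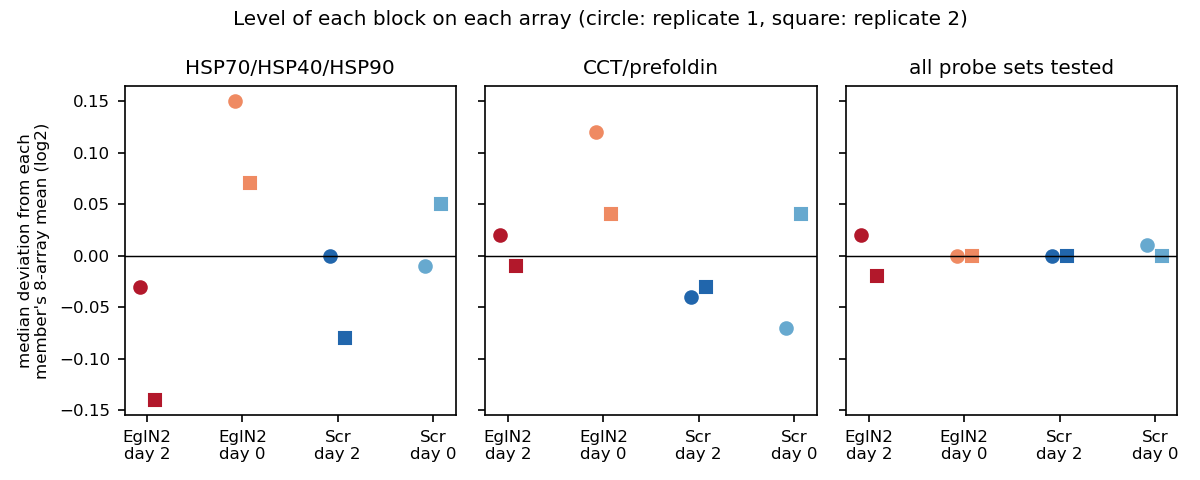
Median deviation of each block's probe sets from their own mean (y axis, log2) on each of the 8 arrays, by group. In EglN2 shRNA cells the HSP70/HSP40/HSP90 block lies at -0.03 and -0.14 at day 2, against 0.15 and 0.07 at day 0, and the CCT/prefoldin block at 0.02 and -0.01, against 0.12 and 0.04.

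Averaged over both lines, the mean day 2 difference asked for what they had in common. Without a replicate block no member passed, against 30 of all probe sets (0.141%), and the values here are from that fit. With the replicate number as a block, which the labels do not tie to a shared culture, HSPH1, HSPA1A/HSPA1B and DNAJA1 passed. Without it HSPH1 came nearest, at -0.83 (SE 0.15, limma, adjusted p = 0.0845), a level of 56.4%, followed by DNAJA1 at -0.44 (SE 0.08, adjusted p = 0.0992). HSPA1A/HSPA1B had -0.83 (SE 0.20, adjusted p = 0.195), BAG1 -0.33 (SE 0.08, adjusted p = 0.211), and BAG3 -0.30 and CHORDC1 -0.44 (both adjusted p = 0.247). At an unadjusted p under 0.05, 10 members were lower (4.27% of all probe sets) and 0 higher (6.47%). DNAJB1 had -0.32, HSPA8 -0.22, STIP1 -0.20 and HSP90AA1 -0.14. TCP1 had -0.03, HSP90AB1 -0.05, HSF1 -0.08 and PFDN2 -0.12. Within the CCT ring and prefoldin the smallest p belonged to CCT6A at -0.14 (adjusted p = 0.56), PFDN5 at -0.13 (adjusted p = 0.641) and CCT3 at -0.11 (adjusted p = 0.643). Members with a 3-unit run in the promoter window had a median mean difference of -0.14 (range -0.44 to -0.05, n = 5), and those without had -0.05 (range -0.83 to 0.11, n = 31). HSPH1 and HSPA1A/HSPA1B are among those without. By the 2-unit run the medians of the mean difference were -0.11 with it and -0.05 without. They were -0.21 with it and -0.10 without in the EglN2 shRNA line, and -0.01 with it and -0.04 without in the Scr line.

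Genes outside the list but in the same pathways were described by list. Of 13 other HSF targets and regulators, 2 were lower and 1 higher in the EglN2 shRNA line at an unadjusted p under 0.05 (3.04% and 2.73% of all probe sets), with 0 past the adjusted threshold and a median of -0.11. In the Scr line 0 were lower and 0 higher at that unadjusted p (5.36% and 7.49% of all probe sets), with a median of -0.01. CRYAB, a small heat shock protein, had 0.68 in EglN2 shRNA cells (SE 0.12, adjusted p = 0.168) and 0.10 in Scr cells. Its mean of 6.22 over all arrays lay within the range of the markers of other cell types. It read 6.61 and 6.46 in EglN2 shRNA cells at day 2, against 5.9 and 5.81 at day 0. In Scr cells it read 6.41 and 6.18 at day 2, against 6.17 and 6.23 at day 0. Of 25 other cytosolic cochaperones 2 were lower and 0 higher in the EglN2 shRNA line at an unadjusted p under 0.05 (3.04% and 2.73% of all probe sets). Their median there was -0.05. In the Scr line 1 was lower and 1 higher (5.36% and 7.49% of all probe sets), with a median of -0.01. DNAJA4, an HSP40 close to DNAJA1, had -0.51 (SE 0.20, adjusted p = 0.768) in EglN2 shRNA cells and -0.48 (SE 0.20, adjusted p = 0.362) in Scr cells. The 8 other partners of the chaperonin and prefoldin had medians of -0.09 in EglN2 shRNA cells and 0.12 in Scr cells. As deposited, all 8 had a negative difference of the changes, with a median of -0.22 (48.4% of all probe sets were negative). Under quantile normalization 6 of the 8 were negative, with a median of -0.15. On the Scr day 0 arrays VBP1 read 8.37 and 8.84, and TXNDC9 read 8.27 and 8.81. Replicate 1 lay below replicate 2 there for all but PDCL3 (9.62 and 9.46) and PDRG1 (9.12 and 9.1). Of these 8 partners 1 was lower in each line at an unadjusted p under 0.05 (3.04% and 5.36% of all probe sets), and PDCL, at 0.38 (SE 0.12, adjusted p = 0.315), was higher in Scr cells (7.49%). PDCL3, the lower one and a phosducin-like CCT cofactor, had -0.46 (SE 0.11, adjusted p = 0.389) and -0.41 (SE 0.11, adjusted p = 0.265). Of 18 tubulins, actins and tubulin cofactors, the clients of the ring, 0 had an unadjusted p under 0.05 in either line. Of all probe sets 3.04% were lower and 2.73% higher at that level in the EglN2 shRNA line, and 5.36% and 7.49% in the Scr line. By sign 8 were negative and 9 positive in EglN2 shRNA cells, and 5 and 13 in Scr cells, with medians of 0.01 and 0.06.

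The difference of the 2 lines' changes asked how far day 2 departed from day 0 in EglN2 shRNA cells beyond the same step in Scr cells. No member passed, against 0 of all probe sets (0%), with 2 members lower and 1 higher at an unadjusted p under 0.05, against 3.98% and 3.14% of all probe sets. Those were HSPA4L at -0.45 (SE 0.15, limma, adjusted p = 0.676), BAG2 at -0.37 (SE 0.15, adjusted p = 0.68) and HSF1 at 0.40 (SE 0.15, adjusted p = 0.678). CHORDC1 had -0.45 (SE 0.24, adjusted p = 0.703), PFDN2 0.36 (SE 0.17, adjusted p = 0.702) and PTGES3 -0.34 (SE 0.18, adjusted p = 0.702). Wide intervals came with the values of HSPH1, HSPA1A/HSPA1B and DNAJA1: -0.15 for HSPH1 (95% confidence interval -0.80 to 0.50), -0.08 for HSPA1A/HSPA1B (-0.98 to 0.83) and 0.03 for DNAJA1 (-0.34 to 0.41). These intervals are from the fit without a replicate block. It counts as spread the replicate gaps of HSPH1 and HSPA1A/HSPA1B, which ran the same way in all 4 groups. HSPA8 had -0.08, DNAJB1 0.00, HSP90AA1 -0.12, HSP90AB1 -0.11 and TCP1 -0.09. The HSP40 genes DNAJB2, at 0.45 (SE 0.26, adjusted p = 0.72), and DNAJB4, at -0.65 (SE 0.41, adjusted p = 0.723), had wide errors, while PFDN5 had 0.21 and CCT2 -0.13. The block medians were -0.08 for HSP70, HSP40 and HSP90 and -0.09 for the CCT ring and prefoldin, against 0.01 over all probe sets, and 0.00 and -0.01 under quantile normalization.

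**Figure D5:**
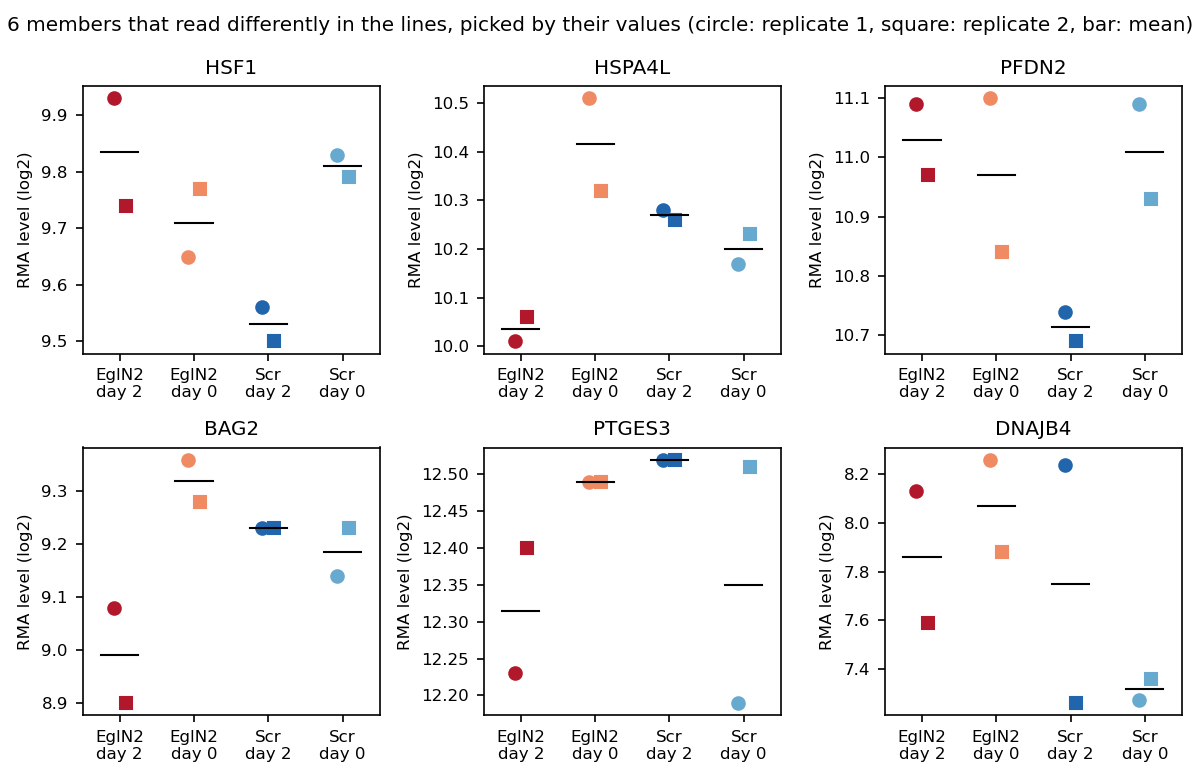
Log2 level of 6 members with unlike patterns in the 2 lines, picked by their values (1 panel each; y axes differ), on every array by group, with circles for replicate 1, squares for replicate 2 and a bar at the mean. HSF1 and PFDN2 are lowest on the Scr day 2 arrays, and HSPA4L and BAG2 on the EglN2 shRNA day 2 arrays.

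Between the lines at day 2, EglN2 shRNA minus Scr, no member passed, against 16 of all probe sets (0.0754%). HSF1 had 0.30 (SE 0.11, limma, adjusted p = 0.79), PFDN2 had 0.32 (SE 0.12, adjusted p = 0.861) and BAG2 had -0.24 (SE 0.11, adjusted p = 0.96). These 3 are the members with an unadjusted p under 0.05, where 5.19% of all probe sets had one. HSPA4L had -0.23 (adjusted p = 0.968) and CHORDC1 -0.20 (adjusted p = 0.995). HSPH1, HSPA1A/HSPA1B and HSP90AB1 had -0.04 each, HSP90AA1 -0.09, HSPA8 0.02, DNAJB1 0.03, TCP1 0.08 and DNAJA1 0.10. Other members with small p were DNAJB2 at 0.26, HSPA14 at 0.18, CDC37 at 0.17, PFDN5 at 0.16 and PFDN4 at -0.13 (adjusted p = 0.995 each). The groups did not overlap for 9 members lower (14.8% of all probe sets) and 9 higher (15.6%).

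At day 0, before doxycycline, no member differed past the threshold, against 0 of all probe sets (0%). DNAJB4 alone had an unadjusted p under 0.05, where 10.4% of all probe sets had one: it read 8.26 and 7.88 in EglN2 shRNA cells and 7.27 and 7.36 in Scr cells, a difference of 0.75 (SE 0.29, limma, adjusted p = 0.456). Of the 42 members 33 were higher in EglN2 shRNA cells, with a median of 0.06, and 14 of them without overlap (22.2% of all probe sets), against 4 lower without overlap (22.9%). All 8 CCT subunits were positive, by 0.03 to 0.16. Under quantile normalization of the arrays this direction was lost: the median of the members was -0.02, with 25 of 42 negative. The day 0 values enter both the day 2 minus day 0 differences above and this comparison. HSPH1 had 0.11, HSPA8 0.10, HSP90AB1 0.07, DNAJA1 0.07, HSPA1A/HSPA1B 0.04, DNAJB1 0.03 and HSP90AA1 0.03, and CHORDC1 had 0.24, TCP1 0.16, HSF1 -0.10 and PFDN2 -0.04. HSPA4L had 0.22 (adjusted p = 0.497), HSPA2 -0.21 (adjusted p = 0.546), FKBP5 0.15, BAG2 0.13, CCT5 0.12 and CCT2 0.10.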

How the data were processed

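Total RNA was labelled with biotin and hybridised to Affymetrix Human Gene 1.0 ST arrays. The authors deposited RMA log2 values, 1 for each probe set and array. The submitters' processing notes name Affymetrix Expression Console, without a version. RMA compresses differences of dim genes. The platform's probe table gives 1 gene for 19460 of 33297 probe sets, several for 1754 and none for 12083. The 21214 named ones were fitted as 4 group means over 8 arrays with limma 3.58.1 in R 4.3.3 (residual degrees of freedom 4, prior 5.53), two-sided, with Benjamini-Hochberg adjustment at 0.05. Of each gene the probe set with the highest mean was used. Blocks are described by counts and medians, with no test of a list. The members and lists were chosen with earlier results of these data known. HSF1, HSPA1A/HSPA1B, HSPA8, HSPH1, DNAJA1, DNAJB1, HSP90AA1, HSP90AB1, CHORDC1, TCP1 and PFDN2 are named in each comparison, plus the 3 members with the smallest p in a block where they add to these. The fit was tested on simulated data. Promoter sequences and gene starts are RefSeq's.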

Additional observations from a re-analysis of the deposited data

Results flagged for a closer look

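In HSPA4L and PTGES3, 2 of 42 members, every day 2 array lay below every day 0 array in the EglN2 shRNA line and above every day 0 array in the Scr line. The difference of the changes was -0.45 for HSPA4L (-0.38 in EglN2 shRNA cells, 0.07 in Scr cells, SE 0.15, limma, adjusted p = 0.676) and -0.34 for PTGES3 (-0.17 in EglN2 shRNA cells, 0.17 in Scr cells, SE 0.18, adjusted p = 0.702). The opposite directions themselves were not tested, and neither difference passed the test over all probe sets. PTGES3 read 12.52 on both Scr arrays at day 2, against 12.19 and 12.51 at day 0. Its separation in the Scr line was thus minimal on the replicate 2 array of day 0. Under quantile normalization the HSPA4L difference in the Scr line was negative, so its opposite directions were lost. The same pattern held for 3.02% of all probe sets (640 of 21214).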

How the results depend on the processing

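No alternative moved a member past the threshold in the difference of the changes or between the lines at either day, and leaving out any single array gave 0 member calls in all 6 comparisons. With the replicate number as a block, which the labels do not tie to a shared culture and only 2 numbers could support (correlations of replicate differences between groups 0.10 to 0.27), 6 member probe sets passed in the EglN2 shRNA line, 6 in the Scr line and 7 for the mean of both, against 0 each. These were the 5 of HSPA1A/HSPA1B and HSPH1 (adjusted p = 0.0398 to 0.043 in EglN2 shRNA cells, 0.0341 to 0.0349 in Scr cells and 0.00398 for the mean) and, for the mean, DNAJA1 (0.0379). Outside the list PDCL3 (0.0349) and DNAJA4 (0.0435) passed for the mean. Over all probe sets the block gave 13, 42 and 150 calls, against 2, 0 and 30, and 32 between the lines at day 2, against 16. A prior variance that follows the level, robustly fitted, called 1 member for the mean change, DNAJA1 (adjusted p = 0.0423).

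Quantile normalization took the medians to -0.10 (CCT ring and prefoldin, Scr line), to 0.00 and -0.01 (HSP70, HSP40 and HSP90, then CCT and prefoldin, difference of the changes) and to -0.01 and -0.02 (the same, day 0). It turned uncalled differences of HSP90AB1 (-0.07) and TCP1 (-0.01) in the Scr line, HSPA8 (0.02) in the difference of the changes, and HSPA1A (-0.02), DNAJA1 (-0.02), DNAJB1 (-0.06), HSP90AA1 (-0.05) and HSP90AB1 (-0.01) at day 0; the cause was not tested. With all probe sets of the block, which count HSPA1A/HSPA1B 5 times, the HSP70, HSP40 and HSP90 median in the Scr line was -0.18.

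Leaving out each array in turn, the HSP70, HSP40 and HSP90 median ranged from -0.25 to -0.12 in the EglN2 shRNA line, -0.11 to -0.01 in the Scr line, -0.15 to 0.01 for the difference, -0.11 to 0.11 at day 2 and 0.04 to 0.15 at day 0. The CCT and prefoldin median ranged from -0.09 to 0.03 in the Scr line, -0.10 to -0.03 for the mean, -0.11 to 0.02 for the difference, 0.01 to 0.09 at day 2 and 0.00 to 0.12 at day 0. Without 1 day 2 array of its line HSPA1A ran from -1.19 to -0.54 in EglN2 shRNA cells and -1.15 to -0.42 in Scr cells, DNAJB1 from -0.53 to -0.12 and -0.54 to -0.11, and HSPA8 from -0.38 to -0.14 and -0.30 to -0.06. Single genes that changed sign, all uncalled, ranged as follows. In the EglN2 shRNA line PFDN2 ran from -0.07 to 0.19. In the Scr line CHORDC1 ran from -0.46 to 0.01, HSP90AB1 from -0.01 to 0.03 and TCP1 from -0.09 to 0.12, and TCP1 ran from -0.08 to 0.02 for the mean. For the difference HSPA1A ran from -0.44 to 0.29, HSPH1 from -0.40 to 0.10, DNAJB1 from -0.21 to 0.22, HSPA8 from -0.20 to 0.04, DNAJA1 from -0.09 to 0.16 and TCP1 from -0.19 to 0.02. At day 2 HSPA1A ran from -0.41 to 0.32, HSPH1 from -0.22 to 0.13, DNAJB1 from -0.19 to 0.24 and HSPA8 from -0.10 to 0.14. At day 0 HSPA1A ran from -0.19 to 0.27, HSPH1 from -0.14 to 0.36, DNAJB1 from -0.12 to 0.17, DNAJA1 from -0.05 to 0.20, HSP90AA1 from -0.03 to 0.09 and PFDN2 from -0.17 to 0.09. The fit on only the arrays of the groups compared was not run for the mean and the difference of the changes, which use all 8 arrays. Signal over background was not analysed here, and 2 arrays a group limit the precision.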

Other observations

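Chaperones of other compartments, which belong to no block of the report, were read from the same arrays. Of 11 chaperones of the endoplasmic reticulum the median difference was 0.00 in the EglN2 shRNA line and 0.12 in the Scr line, with 0 past the threshold in either (limma). HSPA13, an HSP70 relative of the microsomes, had -0.15 in EglN2 shRNA cells and 0.72 in Scr cells (SE 0.15, adjusted p = 0.978 and 0.225). DNAJC3, the HSP40 protein that inhibits the kinase PERK, had -0.40 in EglN2 shRNA cells and 0.20 in Scr cells (SE 0.11, adjusted p = 0.496 and 0.462).

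Of 11 mitochondrial chaperones the medians were 0.05 and 0.04, with 0 past the threshold. TRAP1, the mitochondrial HSP90, had 0.41 in EglN2 shRNA cells and 0.26 in Scr cells (SE 0.10, limma, adjusted p = 0.427 and 0.36), both higher without overlap. GRPEL1, the exchange factor of mitochondrial HSP70, had -0.49 in EglN2 shRNA cells and 0.03 in Scr cells (SE 0.12, adjusted p = 0.382 and 0.927).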
